A study of Mus musculus with 4 samples.

Results

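The genes described here encode titin and 8 proteins of the Z-disc and the M-band, the structures that anchor the sarcomere of heart muscle. They were the rows of the expression table named *Ttn*, *Actn2*, *Ldb3*, *Csrp3*, *Myoz2*, *Tcap*, *Nebl*, *Myom1* and *Myom2*, 9 of 55401 genes. All 9 were listed above 0 in every library, and all 9 passed the filter on low values, a mean of at least 1 TPM, the unit of length-normalised transcript abundance used here. Heart RNA came from 4 mice, all 8 weeks old. Of these, 2 were wild-type and 2 heterozygous for the CTCF-R567W mutation (*Ctcf* +/R567W), with 1 library per mouse. All mice were C57BL/6N, and the mutation had been introduced by CRISPR/Cas9 editing. It is a germline change of 1 *Ctcf* allele, carried by every cell type, so the tissue is not a cardiomyocyte-specific model. The comparison asks whether the transcripts of these structural genes differ between hearts with and without the mutant allele.

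A sarcomere runs from one Z-disc to the next, with the M-band at its centre. Titin is a giant protein that spans from the Z-disc to the M-band, acts as a spring during stretch and serves as a scaffold for signalling proteins at both ends. At the Z-disc, alpha-actinin 2 (*Actn2*) crosslinks the actin filaments of neighbouring sarcomeres, telethonin (*Tcap*) ties the ends of titin molecules together, and smaller proteins such as *Csrp3* and *Myoz2* link the disc to signalling pathways. At the M-band, myomesins (*Myom1*, *Myom2*) crosslink myosin filaments and bind titin. Mutations in several of these genes are known causes of inherited cardiomyopathy.

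Start-site sequences are shown for 3 of the genes, titin as the gene the others are built around and the pair of Z-disc genes whose genotype difference was larger than the spread within either genotype, *Myoz2* and *Ldb3*. RefSeq (GRCm38.p6) windows of 300 bases, 250 before and 50 after a start site, matched 7 of the 9 genes with 12 windows. No window was matched for *Tcap* or *Myom2*. The 250 bases before the start are printed 5′ to 3′ on the strand of the gene, with capitals marking the MEF2 box, the A/T-rich element named after the muscle transcription factors MEF2, and the letters CCCTC or, on the other strand, GAGGG, a core found within many CTCF sites.
*Ttn* (chr2:76982548-76982797, minus strand): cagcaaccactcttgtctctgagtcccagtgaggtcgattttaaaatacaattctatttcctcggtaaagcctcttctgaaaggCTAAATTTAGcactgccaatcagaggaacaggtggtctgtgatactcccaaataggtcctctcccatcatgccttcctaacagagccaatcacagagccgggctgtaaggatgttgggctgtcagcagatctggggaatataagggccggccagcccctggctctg
*Myoz2* (chr3:123034988-123035237, minus strand): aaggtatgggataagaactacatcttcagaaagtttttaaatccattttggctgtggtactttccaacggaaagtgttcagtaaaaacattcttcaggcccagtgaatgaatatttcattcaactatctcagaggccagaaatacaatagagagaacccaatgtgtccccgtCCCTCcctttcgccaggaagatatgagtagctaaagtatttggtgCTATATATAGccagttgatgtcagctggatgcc
*Ldb3* (chr14:34588682-34588931, minus strand): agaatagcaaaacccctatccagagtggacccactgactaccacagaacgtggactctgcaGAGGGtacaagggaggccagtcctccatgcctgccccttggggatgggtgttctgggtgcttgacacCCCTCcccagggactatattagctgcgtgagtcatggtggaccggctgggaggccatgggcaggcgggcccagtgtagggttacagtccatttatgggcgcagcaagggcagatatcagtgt

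The MEF2 box was found in 2 of the 7 genes, beginning 166 bases before the start of *Ttn* and 33 bases before that of *Myoz2*. It is rare, present in 0.557% of all 32851 windows on either strand. CCCTC or GAGGG was found in at least 1 window of 6 of the 7 genes, all but *Ttn*, but it lies in 66.0% of all windows. Both percentages count windows and not genes, and a gene with several windows has more chances of a match. *Nebl* had CCCTC or GAGGG in 1 of 4 windows and *Csrp3* in 1 of 2. The 2 motifs did not overlap in the printed sequences. The matches are descriptions of the letters only, and no binding was measured in these data.

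The libraries hold TPM per gene, which keep no read depth, so the counting error behind a value is unknown. Genes of the mitochondrial genome took between 61.1% and 68.6% of TPM. Each library was therefore divided by a median-of-ratios factor over the tested genes (1.09 and 1.26 in wild-type, 0.818 and 0.903 in *Ctcf* +/R567W hearts, replicates 1 and 2 in that order throughout), and values called scaled TPM are on this scale. TPM are per transcript length, so levels of genes are set side by side here. Differences between the heterozygous hearts still moved with transcript length, as given below, so comparisons between genes of unlike length are approximate. *Ctcf* itself was at 6.12 and 6.02 scaled TPM in wild-type and 7.51 and 5.76 in heterozygous hearts, overlapping levels. That level cannot check the genotype, since a substitution in one allele need not change the amount of transcript.

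None of the 9 genes was called different between genotypes. A call needed more than a 1.5-fold change together with an adjusted p below 0.05 in limma on log2(scaled TPM + 1) over all genes, and 2 of the 10036 tested genes met it, 0.0199%, both lower in heterozygous hearts. None of the 9 reached an unadjusted p under 0.05 in limma either, where 1224 of the 10036 tested genes did. With only 9 genes this is not read as a difference from the other genes. The adjusted p of the 9 ranged from 0.438 for *Ldb3* to 0.908 for *Nebl*. The log2 fold change was above 0 for 3 genes and below 0 for 6, with a median of -0.16 beside -0.0047 for all tested genes. With 2 hearts per genotype an exact permutation test of a single gene cannot give a p below 0.333. The p-values from the model rest on the spread between these single hearts, drawn towards that of other genes of similar level.

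**Figure D1:**
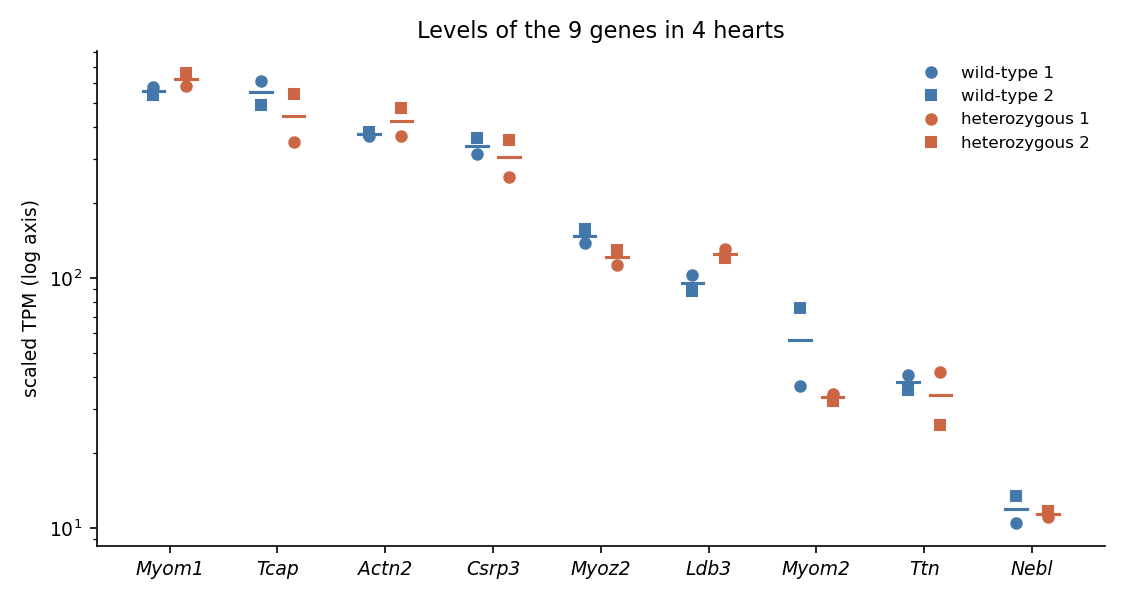
Scaled TPM on a log axis for the 9 genes, ordered by mean level, with 1 point per heart and a short bar at the mean of each genotype (n = 2). The levels run from about 11.7 for *Nebl* to 591 for *Myom1*, and in most genes the points of the genotypes interleave.

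The levels themselves covered a 50.8-fold range of means, from 11.7 scaled TPM for *Nebl* to 591 for *Myom1*. In descending order the genes were *Myom1*, *Tcap*, *Actn2*, *Csrp3*, *Myoz2*, *Ldb3*, *Myom2*, *Ttn* and *Nebl*. Neighbours whose ranges over the 4 hearts overlapped were *Myom1* and *Tcap*, *Tcap* and *Actn2*, *Myoz2* and *Ldb3*, and *Myom2* and *Ttn*, so their order is not resolved by these hearts. *Myom1* ranked 60 among the 10036 tested genes by mean level and *Nebl* ranked 2165.

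Titin transcripts were not separated by genotype. *Ttn* (chromosome 2, 76703980 to 76982547, minus strand, mm10) was at 40.8 and 35.7 scaled TPM in wild-type and at 42.1 and 25.8 in *Ctcf* +/R567W hearts. The heterozygous hearts held both the highest and the lowest value, 1.63-fold apart, while the wild-type hearts were 1.14-fold apart. The log2 fold change was -0.20 ± 0.25 (SE, 95% interval -0.80 to 0.40, limma adjusted p = 0.749). Leaving out the second heterozygous heart turned the sign, to 0.14, and leaving out the first gave -0.54. The table gives 1 value per gene, so the long and short titin isoforms that set the stiffness of heart muscle were not told apart.

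Telethonin, which binds the Z-disc end of titin, differed most between the heterozygous hearts in the opposite sense. *Tcap* (chromosome 11, 98383811 to 98384953, plus strand) was at 615 and 492 scaled TPM in wild-type and at 349 and 543 in heterozygous hearts. The first heterozygous heart was the lowest of the 4, and the second lay between the wild-type hearts. Its log2 fold change was -0.34 ± 0.27 (SE, limma adjusted p = 0.614), and it was -0.017 without the first heterozygous heart and -0.65 without the second (limma adjusted p = 0.163). The ratio of *Tcap* to *Ttn* within a heart, which no scaling between libraries changes, was 15.1 and 13.8 in wild-type and 8.30 and 21.04 in heterozygous hearts, so both extremes were heterozygous and the genotypes overlapped.

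*Ttn* has the longest annotated transcript of the 9 genes, 106824 bases, and *Tcap* the shortest, 948 bases. Transcript length moved with the same split of the heterozygous hearts across all tested genes. Among the 750 genes under 1000 bases, the median deviation from a gene's own mean was -0.20 on the log2 scale in the first heterozygous heart and 0.10 in the second. Among the 23 genes of 16000 bases or more it was 0.18 and -0.16, the reverse. In the wild-type hearts the median deviation of these length classes stayed between -0.016 and 0.052. Correcting each library for transcript length and GC content by loess narrowed the log2 gap of *Ttn* between the heterozygous hearts from 0.68 to 0.12 and that of *Tcap* from -0.64 to -0.29 (first minus second). It left the genotype differences at -0.12 for *Ttn* and -0.30 for *Tcap* (limma adjusted p = 0.710 and 0.441). With only 23 tested genes of 16000 bases or more, the correction of *Ttn* came from the edge of the fit. How much of its gap went with length was not tested. For *Actn2*, of 3013 bases, the gap changed little, from -0.37 to -0.32. It widened for *Nebl*, of 8079 bases, from -0.066 to -0.31, and for *Myom1*, of 5648 bases, from -0.17 to -0.30. In the wild-type hearts the correction moved *Ttn* further apart, from log2 values of 5.38 and 5.20 to 5.41 and 5.12.

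**Figure D2:**
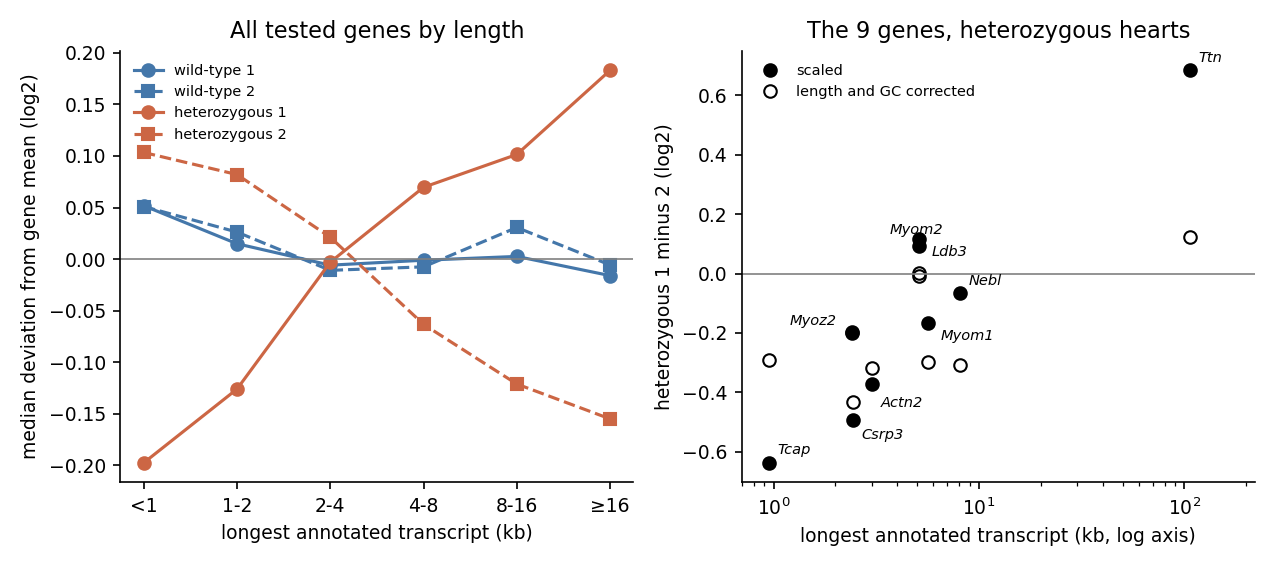
Left, median deviation of the tested genes from their own mean (log2) by length of the longest annotated transcript, 1 line per heart. Right, the log2 difference between the first and second heterozygous heart for the 9 genes against transcript length on a log axis, before (filled) and after (open) correction for length and GC content. The heterozygous lines cross, from -0.20 and 0.10 under 1 kb to 0.18 and -0.16 at 16 kb or more, and *Tcap* and *Ttn* lie at the ends of the right panel.

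Of the Z-disc scaffold genes, *Ldb3* had the clearest separation towards higher levels. *Ldb3*, which encodes the PDZ and LIM domain protein Cypher that binds alpha-actinin (chromosome 14, 34526603 to 34588682, minus strand), was at 102.7 and 88.8 scaled TPM in wild-type and at 129.9 and 119.8 in heterozygous hearts. Both heterozygous hearts were above both wild-type hearts, by 1.30-fold in the fit. The log2 fold change of 0.38 ± 0.18 (SE, 95% interval -0.056 to 0.82) was larger than the gaps within either genotype, 0.21 and 0.12, yet its limma adjusted p was 0.438. The separation depended on the scaling. As deposited, *Ldb3* was at 111.7 and 111.8 TPM in wild-type and at 106.2 and 108.2 in heterozygous hearts, and its log2 fold change was -0.059 where the median of all tested genes was -0.35.

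*Actn2*, the main actin crosslinker of the Z-disc (chromosome 13, 12269426 to 12340760, minus strand), was at 371 and 383 scaled TPM in wild-type and at 369 and 478 in heterozygous hearts. Only the second heterozygous heart stood above the wild-type hearts, and the first was level with them. Between genotypes the log2 fold change was 0.16 ± 0.21 (SE, limma adjusted p = 0.771), and it was -0.030 without the second heterozygous heart and -0.29 in TPM as deposited. *Nebl*, encoding nebulette, a small cardiac relative of nebulin at the Z-disc (chromosome 2, 17343909 to 17731464, minus strand), was at 10.4 and 13.4 scaled TPM in wild-type and at 11.1 and 11.6 in heterozygous hearts. Both heterozygous values fell within the wild-type range, and its log2 fold change of -0.056 ± 0.17 was the smallest of the 9 genes.

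Among the Z-disc signalling genes, *Myoz2* was lower in both heterozygous hearts in scaled TPM, though not after scaling to cardiomyocyte markers. *Myoz2* encodes calsarcin-1, which binds and restrains the phosphatase calcineurin (chromosome 3, 123006206 to 123035015, minus strand). It was at 138 and 156 scaled TPM in wild-type and at 113 and 130 in heterozygous hearts, a 1.21-fold difference in the fit. The log2 fold change of -0.28 ± 0.19 (SE, 95% interval -0.73 to 0.17) exceeded the gaps within the genotypes, 0.17 and 0.20, and the limma adjusted p was 0.550. Scaled to cardiomyocyte markers, *Myoz2* was at 125 and 150.2 in wild-type and at 133 and 128 in heterozygous hearts, which overlap, and its log2 fold change was -0.072. *Csrp3*, the muscle LIM protein of the Z-disc (chromosome 7, 48830398 to 48848033, minus strand), overlapped between genotypes, at 313 and 363 scaled TPM in wild-type and 254 and 358 in heterozygous hearts. Its low value was again that of the first heterozygous heart, and without that heart the log2 fold change moved from -0.16 to 0.085.

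The myomesin genes of the M-band had log2 fold changes of opposite sign in scaled TPM, whereas both were negative in TPM as deposited and with mitochondrial genes removed, where *Myom1* was at -0.30 and -0.18 beside medians of -0.35 and -0.31 for all tested genes. *Myom1*, the myomesin common to striated muscle (chromosome 17, 71002633 to 71126856, plus strand), was at 582 and 539 scaled TPM in wild-type and at 586 and 659 in heterozygous hearts. The genotypes were separate by a narrow margin, and the log2 fold change was 0.15 ± 0.19 (SE, limma adjusted p = 0.762). *Myom1* overlaps *Myl12a*, a myosin light chain gene on the opposite strand that was listed at 59.2 to 131 TPM as deposited, and the sources used here do not say whether reads were assigned by strand. The genes overlapping *Ttn*, *Myoz2*, *Nebl* and *Myom2* were all listed at 0.

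*Myom2*, a second myomesin (chromosome 8, 15057653 to 15133541, plus strand), had the largest difference of the 9 genes and the widest interval. It was at 37.0 and 75.5 scaled TPM in wild-type and at 34.4 and 32.2 in heterozygous hearts. The heterozygous hearts were below both wild-type hearts, but the first wild-type heart lay close to them, overlapping once libraries were scaled to cardiomyocyte markers, and the second was 2.04-fold above the first. Its log2 fold change was -0.65 ± 0.32 (SE, 95% interval -1.42 to 0.11, limma adjusted p = 0.448), smaller than the gap of 1.01 between the wild-type hearts. Without the second wild-type heart it was -0.15, and without the first it was -1.16. The size of the *Myom2* difference thus rested on 1 wild-type library.

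**Figure D3:**
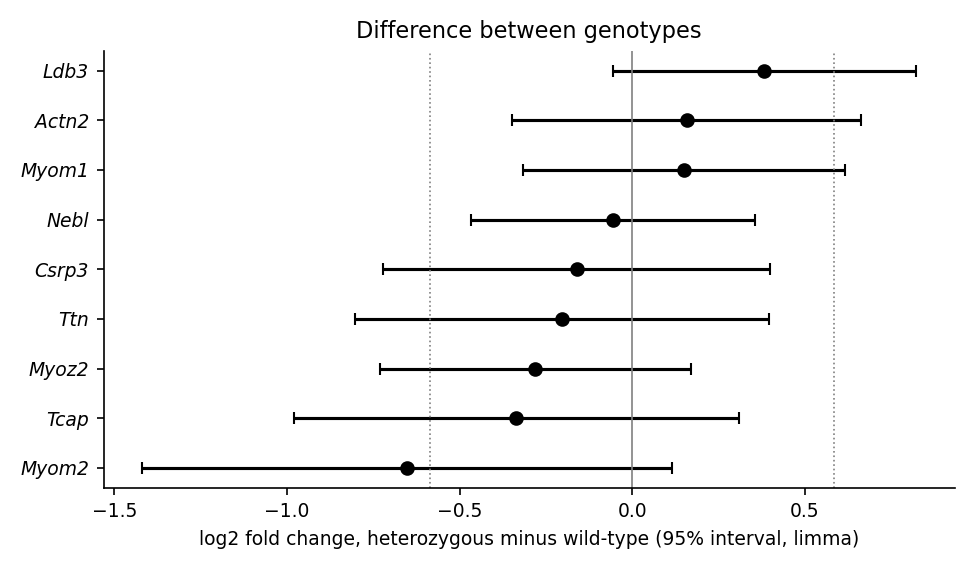
Log2 fold change (heterozygous minus wild-type) of the 9 genes with 95% intervals from limma, n = 2 hearts per genotype; the solid line marks 0 and dotted lines a 1.5-fold change. Every interval crosses 0, from *Ldb3* at 0.38 to *Myom2* at -0.65.

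The genotypes did not overlap in scaled TPM for 4 of the 9 genes. *Ldb3* and *Myom1* were higher, where 23.7% of all tested genes were separate and higher, and *Myoz2* and *Myom2* were lower, where 23.3% were. The share of all tested genes that were separate in either direction was 47.0%, so 4 of 9 is close to the background. When libraries were scaled to the cardiomyocyte markers instead, 3 genes were separate, *Actn2*, *Ldb3* and *Myom1*, all higher beside 39.8% of all tested genes, and none was lower beside 8.28%. A difference larger than the gaps within both genotypes was seen for *Ldb3* and *Myoz2*, 2 of 9, beside 32.8% of all tested genes. In 6 of the 9 genes the heterozygous hearts were further apart than the wild-type hearts on the log2 scale, and *Ldb3*, *Nebl* and *Myom2* had the wider gap between wild-type hearts. The share of all tested genes with a wider heterozygous gap was not computed, so this count is not read as a trait of the 9 genes.

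The choice of scaling shifted all 9 differences together. In TPM as deposited 8 of the 9 genes, all but *Actn2*, were lower in both heterozygous hearts, but 67.8% of all tested genes were too. The summed level of the 9 genes was 2404 and 2703 TPM as deposited in wild-type and 1544 and 2129 in heterozygous hearts (p = 0.333, two-sided exact permutation test). After scaling, the sums were 2210 and 2146 in wild-type and 1889 and 2357 in heterozygous hearts, and the genotypes overlapped. In a bulk sample, fewer cardiomyocytes and less RNA of these genes per cardiomyocyte cannot be told apart.

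**Figure D4:**
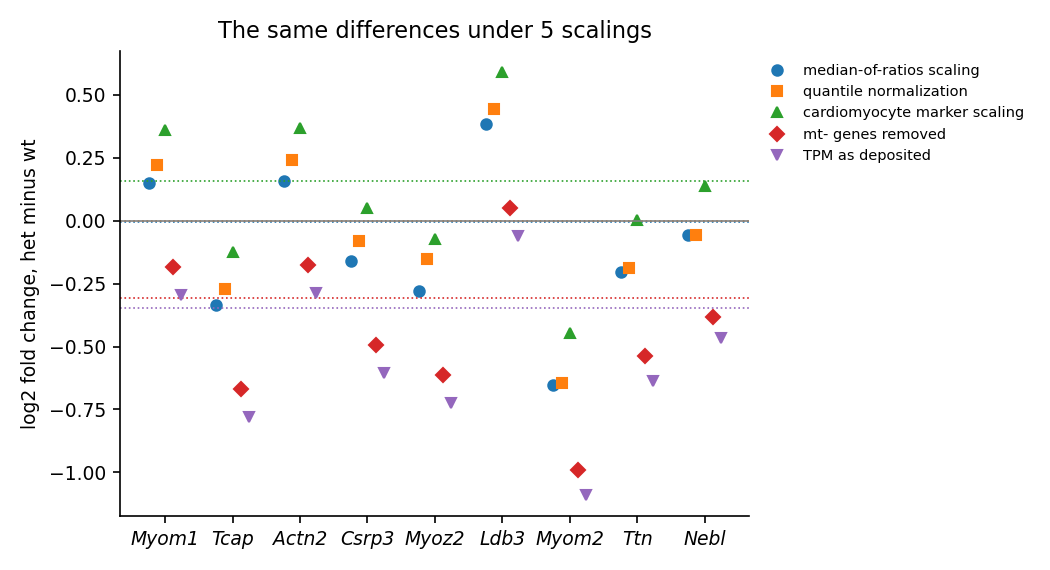
Log2 fold change of each gene under 5 scalings, with dotted lines at the median of all tested genes under each. With TPM as deposited and with mitochondrial genes removed the medians lie at -0.35 and -0.31, with cardiomyocyte marker scaling at 0.16, and each of these 3 scalings moves all 9 genes the same way.

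Shares within a heart avoid the scaling, but they were not corrected for the trend with transcript length that split the heterozygous hearts. Of the summed TPM of the 9 genes, *Actn2* took 16.8% and 17.8% in wild-type and 19.5% and 20.3% in heterozygous hearts. The share of *Ldb3* was 4.64% and 4.14% in wild-type and 6.88% and 5.08% in heterozygous hearts, and that of *Myom1* was 26.3% and 25.1% against 31.0% and 27.9%. Only *Myoz2* had a lower share in both heterozygous hearts, at 6.26% and 7.28% in wild-type and 5.97% and 5.50% in heterozygous hearts. The difference in the *Ldb3* share was 1.59 percentage points, 0.692 without the first heterozygous heart and 2.49 without the second, and that in the *Myom1* share was 3.77 points, 2.22 without the first. For *Myoz2* it was -1.04 points, and -0.530 without the second wild-type heart. Shares of the other 5 genes overlapped between genotypes, and none of the 9 could reach a p below 0.333 (exact permutation test, two-sided). Shares in 1 heart are parts of one whole, so a low share of *Tcap*, 18.5% in the first heterozygous heart against 22.9% to 27.8% in the others, raises the other shares.

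**Figure D5:**
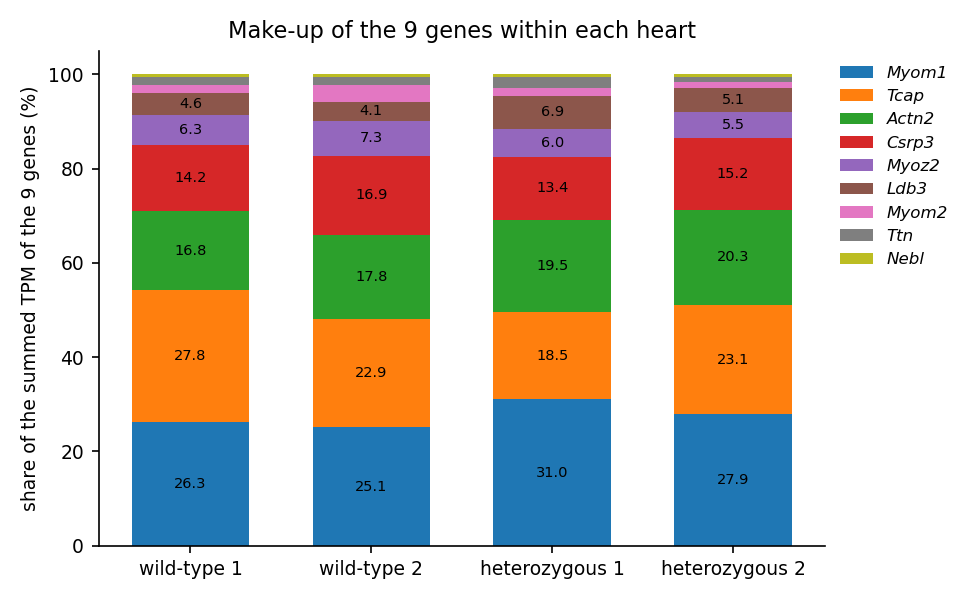
Stacked bars of the share (%) of each gene in the summed TPM of the 9 genes, 1 bar per heart. *Myom1*, *Tcap*, *Actn2* and *Csrp3* fill most of each bar, and the *Actn2*, *Ldb3* and *Myom1* segments are larger in both heterozygous hearts.

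Ratios of gene pairs were computed for 3 pairs, of which *Tcap* to *Ttn* and *Myoz2* to *Actn2* were added after the values were seen. *Myom2* to *Myom1* was 0.0636 and 0.140 in wild-type and 0.0587 and 0.0489 in heterozygous hearts. This ratio was lower by 0.82 on the log2 scale in the heterozygous hearts, less than the 1.14 between the wild-type hearts (two-sided exact permutation p = 0.333, adjusted over the 3 ratios 0.5). It was -0.25 without the second wild-type heart and -1.39 without the first, so its size too rested on 1 wild-type library. *Myoz2* to *Actn2* was 0.373 and 0.408 in wild-type and 0.305 and 0.271 in heterozygous hearts, with a log2 difference of -0.44 beside gaps of 0.13 and 0.17 within the genotypes (exact permutation test, p = 0.333, adjusted 0.5). That pair was separate without the help of any scaling, and it was chosen with the separation in view.

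Genes that work with the Z-disc and the I-band were mixed in direction. Of 25 such genes 22 were tested, none was called, 11 had a log2 fold change above 0 and 11 below, and the median was 0.035. Both heterozygous hearts were higher for 4 and lower for 5 of the 22, near the background of 23.7% and 23.3%. The most abundant were *Cryab*, a small heat shock protein that binds titin, at 621 and 696 scaled TPM in wild-type and 537 and 653 in heterozygous hearts, *Fhl2*, a LIM protein that binds titin, and *Nexn*, an actin-binding Z-disc protein. All 3 overlapped between genotypes. *Nexn* showed the same spread as *Ttn*, with 304 and 174.5 scaled TPM in the heterozygous hearts on either side of 220 and 187 in wild-type.

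The 3 tested partners with the smallest unadjusted p were *Synpo2*, *Xirp2* and *Pdlim7*. *Xirp2*, an actin-binding repeat protein, was at 34.3 and 37.7 scaled TPM in wild-type and at 28.7 and 27.6 in heterozygous hearts, a log2 fold change of -0.34 ± 0.16 (SE, limma adjusted p = 0.434). *Pdlim7*, a PDZ and LIM domain protein like *Ldb3*, was at 9.12 and 9.18 in wild-type and at 10.4 and 14.2 in heterozygous hearts, a log2 fold change of 0.38 ± 0.18 (SE, limma adjusted p = 0.437). *Synpo2*, encoding an actin-bundling protein, had a log2 fold change of -0.33 (unadjusted p = 0.047, limma adjusted p = 0.405). The genotypes were separate in all 3, which were picked for a small p.

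Genes of the M-band and other titin-associated proteins were also mixed. All 13 were tested, none was called, 6 were above 0 and 7 below, and the median log2 fold change was -0.016. *Myom3*, the least abundant myomesin here, was at 0.938 and 1.41 scaled TPM in wild-type and at 2.63 and 2.27 in heterozygous hearts. It was higher in both heterozygous hearts, with a log2 fold change of 0.67 ± 0.16 (SE, 95% interval 0.29 to 1.06, unadjusted p = 0.0048), but its limma adjusted p was 0.318. At these levels the pseudocount of 1 makes the fold change smaller than the ratio of the values. The 3 myomesin genes thus had differences of 0.15 (*Myom1*), -0.65 (*Myom2*) and 0.67 (*Myom3*), none of them called.

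*Trim55*, a ubiquitin ligase that binds titin near the M-band, was at 3.35 and 3.70 scaled TPM in wild-type and at 2.08 and 2.60 in heterozygous hearts, with a log2 fold change of -0.44 ± 0.15 (SE, limma adjusted p = 0.354). *Sqstm1*, the autophagy receptor p62, was at 55.1 and 65.8 in wild-type and at 37.2 and 49.6 in heterozygous hearts, with a log2 fold change of -0.48 ± 0.21 (SE, limma adjusted p = 0.413). Both genes were lower in both heterozygous hearts, as were 23.3% of all tested genes. They are named here, with *Myom3*, because their unadjusted p was the smallest of this list. Of the most abundant genes of this list, *Mybpc3*, cardiac myosin-binding protein C, was at 262 and 246 in wild-type and at 351 and 300 in heterozygous hearts (log2 fold change 0.35 ± 0.19, SE, limma adjusted p = 0.479). *Ckm*, muscle creatine kinase, overlapped between genotypes.

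Beside the filaments that these structures anchor, the 9 genes did not stand apart. The 7 thick filament genes had a median log2 fold change of 0.077 and the 10 tested of 11 thin filament genes a median of -0.26, with the 9 genes between them at -0.16. None of the filament genes was called. In the thin filament list 5 of 10 genes were lower in both heterozygous hearts and none was higher, while the thick filament list of 7 had 1 higher and 2 lower, beside 23.3% lower and 23.7% higher among all tested genes.

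The genes whose profile over the 4 hearts was nearest to that of *Ttn* were not sarcomere genes. By the root mean square difference of centred log2 values they were *Usp19* (0.037), *Rnf40* (0.049), *Rgs2* (0.050), *Zfp236* (0.050) and *Gm47469* (0.051). The other 8 genes were further away, from 0.33 for *Nebl* to 0.52 for *Myom2*, and 56.5% to 94.6% of all tested genes were closer to *Ttn* than they were. Over 4 hearts such likeness is a description of a few values.

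The labelled tissue was borne out by its defining genes, with all 12 cardiomyocyte markers tested and a summed level of 29119 and 27530 scaled TPM in wild-type and 23107 and 27961 in heterozygous hearts. The median log2 fold change of these markers was -0.27, below that of the 9 genes, with 9 of 12 below 0, 6 lower in both heterozygous hearts, none higher and none called. The first heterozygous heart, lowest for *Tcap*, *Csrp3*, *Myoz2* and, by a narrow margin, *Actn2*, but highest for *Ttn* and *Ldb3*, was also lowest in this sum. Atrial markers summed to 806 and 2354 scaled TPM in wild-type and to 1918 and 3281 in heterozygous hearts, and their median log2 fold change was 0.83, with none of 4 called. The second wild-type heart, highest for *Myom2*, was also well above the first in this atrial sum. The highest atrial sum, however, was that of the second heterozygous heart, which was lowest for *Myom2*. Erythroid genes summed to between 930 and 987 in 3 hearts and to 2120 in the second heterozygous heart. Markers of skeletal muscle, which also uses most of these genes, were near 0, since *Myh1*, *Myh2* and *Myh4* were listed at 0 in all hearts and the 10 markers summed to between 5.92 and 6.95 scaled TPM. Endothelial, fibroblast, mural and macrophage lists had medians of -0.092, -0.13, -0.16 and -0.025, with no gene called, and none of the 5 adipocyte markers was tested. The part of these marker levels in the values of the 9 genes was not tested.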

How the data were processed

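Heart RNA of 4 mice was analysed, grouped by the genotype in the sample labels. The authors deposited TPM per gene: per the methods, reads were trimmed with Trim Galore (0.6.10), aligned to mm10 with STAR (2.7.4a) and quantified with RSEM (1.2.28). TPM keep no depth, share each gene's isoforms in 1 value and depend on every other gene of the library, so a change in the mitochondrial share moves all values. The counts that the authors passed to DESeq2 were not used here. Coordinates are those of GENCODE M21 on the same build, matched by identifier for 55141 genes.

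Libraries were brought to one scale with median-of-ratios factors, and values entered the model as log2(scaled TPM + 1). The test covered 10036 genes, those averaging 1 TPM or more over the 4 libraries. It was limma (3.58.1, R 4.3.3) with a trended eBayes prior, two-sided, and p-values were adjusted by Benjamini-Hochberg across the whole set. Fold changes are on the log2(scaled TPM + 1) scale, and intervals are at 95%. Shares and ratios were compared by exact permutation tests over hearts. Scripts were tested on simulated data.

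The 9 genes and all lists were chosen with earlier results of these data known. From each of the 2 partner lists the 3 most abundant genes and the 3 with the smallest p are named, with the 5 genes most like *Ttn* and *Ctcf*. One gene that this rule names is not reported here. Replicate numbers mark different mice, and the sample labels state no pairing between them. The alternatives tried were other pseudocounts and filters, 4 other scalings, other eBayes settings, a replicate block, a GC and length correction, and leaving out each library.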

Additional observations from a re-analysis of the deposited data

How the results depend on the processing

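None of the 9 genes was called under any of 17 alternatives, and the lowest adjusted p was 0.083 (limma, *Myoz2*, mitochondrial genes removed). Unadjusted limma p values under 0.05 were reached by at most 4 of the 9, in TPM as deposited and with mitochondrial genes removed. Under these 2 settings 3390 and 2971 of all tested genes reached them too, against 1224 of 10036 in the main fit. The 4 of 9 are therefore not read as a trait of these genes. Of 153 log2 fold changes under alternatives 141 kept their sign, and *Myoz2*, *Tcap* and *Myom2* kept it throughout. The eBayes settings and the replicate block cannot change a fold change, so part of this count was fixed in advance. All alternatives reuse the same hearts. In TPM as deposited *Actn2* was at -0.29, *Ldb3* at -0.059 and *Myom1* at -0.30, and with mitochondrial genes removed *Actn2* and *Myom1* were both at -0.18. Scaling to cardiomyocyte markers gave 0.0023 for *Ttn*, 0.049 for *Csrp3* and 0.14 for *Nebl*. These scalings put the median of all tested genes at -0.35, -0.31 and 0.16, and the median of the 9 genes at -0.61, -0.49 and 0.049. In TPM as deposited 8 of the 9 genes were separate instead of 4, all lower, and with cardiomyocyte marker scaling 3 were, all higher.

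Leaving out each library in turn gave -0.54 to 0.14 for *Ttn*, -0.030 to 0.34 for *Actn2*, -0.41 to 0.085 for *Csrp3*, -0.22 to 0.11 for *Nebl*, -0.65 to -0.017 for *Tcap*, 0.066 to 0.23 for *Myom1*, -0.38 to -0.18 for *Myoz2*, 0.28 to 0.49 for *Ldb3*, -1.16 to -0.15 for *Myom2*, -1.39 to -0.25 for the *Myom2* to *Myom1* ratio and -0.18 to -0.017 for the median of the 9. The genes called among all tested rose from 2 to between 11 and 17: 14 and 11 without the first and second wild-type heart, 17 and 11 without the first and second heterozygous heart. The lone heart is then assumed to vary like the other genotype, and fewer samples enter the fit. It was 4 when 0.1 in place of 1 was added before taking logs, 0 when genes of any level were tested (limma, 2133 genes at an unadjusted p under 0.05), 13 in TPM as deposited, 14 with mitochondrial genes removed, 11 with cardiomyocyte marker scaling and 5 with robust eBayes, and the cause was not tested. A fit with a replicate block called 10 genes and none of the 9. Same-numbered hearts are different mice and the sample labels state no pairing, so the numbers were not taken as pairs. Their deviations correlated at 0.101 across genes, and whether they shared a batch is not stated. Without the most abundant gene in the sum, shares of *Actn2* and *Ldb3* differed by 4.95 and 2.60 percentage points instead of 2.61 and 1.59. Leaving out each library gave 0.692 to 2.49 points for *Ldb3*, 2.22 to 5.32 for *Myom1* and -1.55 to -0.530 for *Myoz2*. Depth is unknown, and the intervals, which for *Myom2* allow a fold from 0.374 to 1.08, set what 2 hearts per genotype can show.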
